A study of Monodelphis domestica and Mus musculus with 2 samples.

Results

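Neurons labelled as layer 2/3 (L2/3) in the mouse primary visual cortex (V1) lay mostly above the median depth of layer 4 (L4) cells. A smaller number lay below that depth. The cells of both places were compared gene by gene. Members were the cells of the 4 V1 regions that passed the authors' filter and carried the class label glutamatergic and the subclass label L2/3. They numbered 1406 of the 9127 cells of these regions, 6245 of which were glutamatergic, and the series held 200608 segmented cells of mouse and opossum. A further 32 cells had an L2/3 subclass label with another class label and were not members.

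The series holds Stereo-seq data, in which polyA RNA of a tissue section is captured on an array of barcoded spots and the transcripts, counted as unique molecular identifiers (UMIs), are assigned to segmented cells. The mouse data came from 1 section of 10 µm through embedded coronal brain slices of 1 adult male wild-type C57BL/6J mouse at about postnatal day 40 (P40). Both groups compared here, L2/3 cells above and L2/3 cells below, came from that section, were untreated and were set apart by position alone. The 4 regions are separate stretches of V1 of 1 animal, and per the study's legend some of them came from the same tissue slice, so their spread is not a spread between animals, and no p-value was computed.

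Glutamatergic neurons of the cortex fall into intratelencephalic (IT) neurons, which project within the cortex and occupy most layers, and pyramidal tract, near-projecting and corticothalamic neurons of the deep layers. L2/3 neurons connect cortical areas with each other, whereas L4 neurons are the main target of visual input from the thalamus. IT neurons change gradually in gene expression with depth, and the transcription factors Cux1 and Cux2, the Ras exchange factor Rasgrf2 and the calcium buffer calbindin (Calb1) are among the genes that mark the upper layers.

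Depth was measured along the side of the smallest rectangle around each region, from 0 at the top to 1 at the bottom, and the dividing line was the median depth of all 1879 L4 cells, at 0.337 of region height. The line runs through L4, with 939 of the L4 cells below it, so L2/3 cells below the line may still lie within L4. Above the line lay 1122 L2/3 cells and below it 284, which is 20.2% (exact 95% binomial interval 18.1 to 22.4%). The share below was 21.1% in region 1, 19.9% in region 2, 21.2% in region 3 and 18.4% in region 4. These 4 shares lay within each other's counting intervals, which cover counting error only, as do all intervals given here. L2/3 cells below the line had a median relative depth of 0.523 and lay a median of 131 µm under the line. Of the L2/3 cells, 122 were deeper than the median L5IT cell and 20 were deeper than the median L6CT (corticothalamic) cell.

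**Figure D1:**
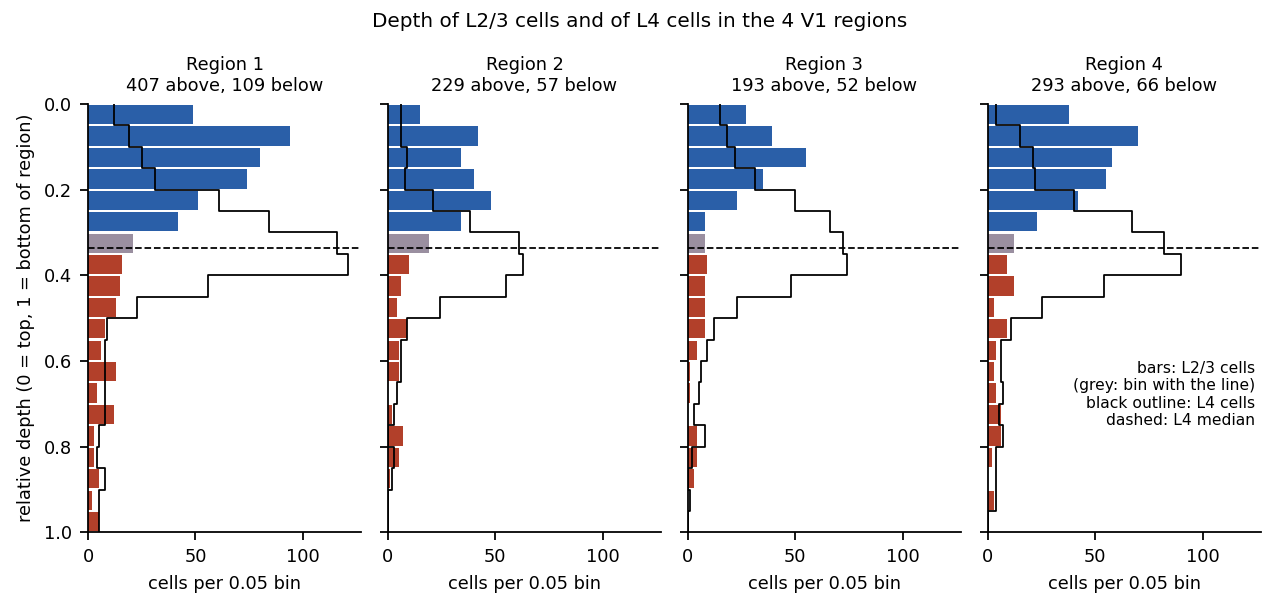
Number of L2/3 cells (bars) and L4 cells (black outline) in each 0.05 step of relative depth, with 0 at the top, in the 4 V1 regions; blue bars lie above and red bars below the dashed L4 median of 0.337, and grey bars hold the line. In every region most L2/3 cells lay near the top, and a thin tail of 52 to 109 cells reached into the lower layers.

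The cells on both sides had nearly the same depth of counts, with a median of 1245 UMIs and 805 genes per cell above and 1261 UMIs and 828 genes below. Summed over cells, 1433808 UMIs were counted above and 373026 below, and levels are given as UMIs per 10000 UMIs of the same side. At this depth, 3 UMIs in the cells below correspond to a level of 0.0804. A UMI assigned to a segmented cell need not have come from it. The folds of the main genes and lists were therefore set beside the same fold in the 10 nearest cells of the same region without an L2/3 label. These are called the surrounding cells, and they include cells with no subclass label.

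The labels of the cells below were given with less agreement. Subclass labels had been transferred in 3 rounds, the first of which required all neighboring cells of a single-nucleus reference to share the label. Of L2/3 cells above the line, 61.1% had been labelled in the first round (50.8 to 67.1% over the regions), against 28.5% below (19.2 to 33.9%), so the regions did not overlap. The third and most lenient round gave 9.00% of the labels above and 23.9% of those below. Finer type labels differed too. L2/3_B was carried by 79.1% of the cells above and 50.4% of those below, L2/3_C by 34 cells above (3.03%) and 0 of 284 below, which allows a share of up to 1.29%, and no type label was given to 12.5% and 30.3%. The type label of microglia, a label at odds with the glutamatergic class, was carried by 3 cells above and by 19 below (6.69%).

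The surrounding cells were of different subclasses on the 2 sides. L4 cells made up 36.7% of them above the line and 28.5% below, pyramidal tract (L5PT) cells 0.410% and 7.57%, L6CT cells 4.63% and 11.6%, and oligodendrocytes 2.59% and 6.20%. Cells with no subclass label made up 24.85% above and 18.63% below, and whether L2/3 neurons were among them is not known. Surrounding cells lay at a median distance of 26.7 µm above and 22.0 µm below. The part of these cells and of the label rounds in the gene differences below was not tested. Values for surrounding cells are given beside most of the main results, and values for first-round cells beside some.

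The vesicular glutamate transporter gene Slc17a7 was at 9.34 above and 10.4 below but also at 10.8 in cells labelled non-neuronal, so its level did not check the label. The 21 genes listed as L2/3 markers together reached a level of 19.8 above and 10.2 below (fold 0.513, interval 0.460 to 0.571). In the 4 regions this sum lay between 19.2 and 20.9 above and between 7.75 and 11.8 below, without overlap. The surrounding cells gave 16.04 above and 8.34 below (fold 0.520). Cells labelled in the first round gave 21.5 above and 12.7 below. The sum was 11.6 in L4 cells and 6.35 in L6CT cells. L2/3 cells between the line and a depth of 0.5 had 13.04 and those deeper than 0.5 had 8.36, so that, pooled over regions, only the deeper of the cells below lay under the L4 cells. The name L2/3 is therefore used here for the deposited label, and not for a set of markers shared by both sides.

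Across genes, 2023 had at least 200 UMIs over both sides and were compared. A gene was called where its pooled level below was at least 1.5 times that above, or the reverse, and the direction was the same in all 4 regions. By this rule 31 genes were higher below, which is 1.53% of the genes compared, and 95 were lower below, which is 4.70%. The median log2 fold of all genes compared was 0.02, that of the genes called higher was 0.73 and that of the genes called lower was -0.76. Because most UMIs lie above the line, a minimum over both sides lets in more genes that are high above. With a mean level of both sides of at least 1 as the minimum in place of 200 UMIs, 54 genes were called higher and 83 lower. Region 1 held the most cells, and without it 30 genes were called higher and 51 lower.

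**Figure D2:**
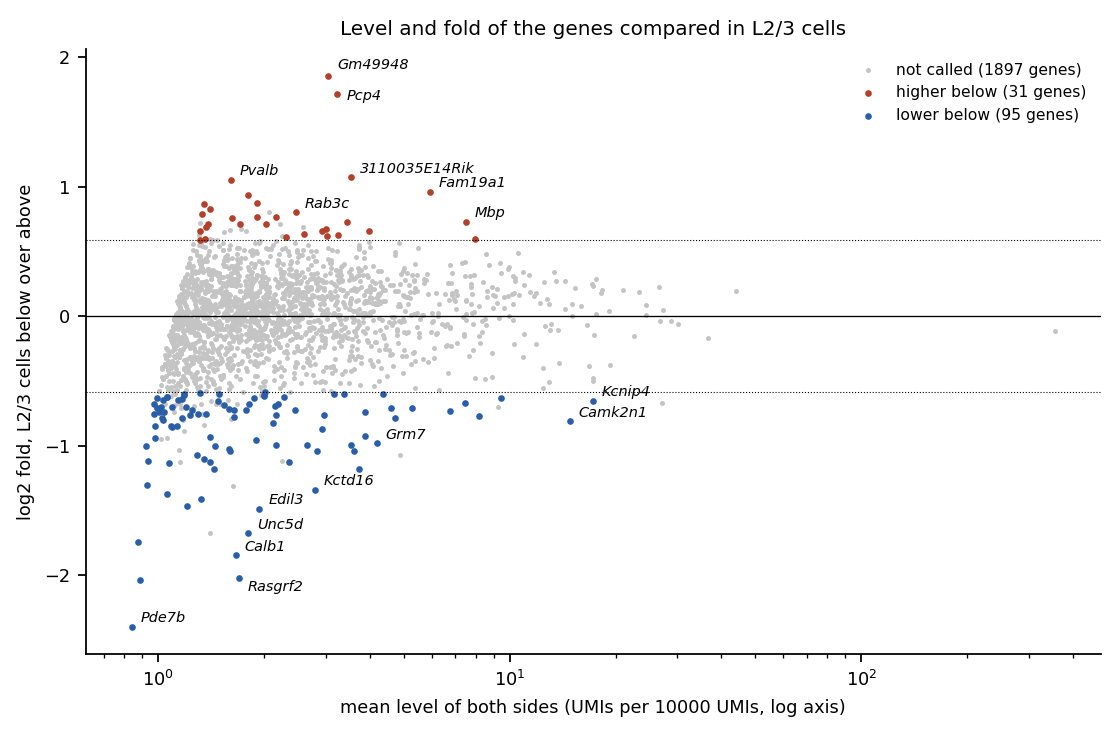
Mean level of both sides (UMIs per 10000 UMIs, log axis) and log2 fold of L2/3 cells below over above for the 2023 genes compared, with dotted lines at a fold of 1.5 either way. The 31 genes called higher below (red) reach a log2 fold of 1.86 at Gm49948, and the 95 called lower below (blue) reach -2.40 at Pde7b.

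Pcp4, which encodes a small calmodulin-binding protein and lies on chromosome 16 at 96268806 to 96326997 (GRCm39), had one of the highest folds. Its level in L2/3 cells above was 1.70, 1.33, 0.954 and 1.68 in regions 1 to 4, and below it was 5.30, 4.46, 3.84 and 5.80. Every region below stood above every region above, and the pooled fold was 3.29 (interval 2.69 to 4.03). The surrounding cells showed the same fold, 3.28, at levels of 1.52 and 4.99. Pcp4 was at 7.45 in L6CT cells, 5.36 in L5IT cells, 5.20 in L5PT cells, 4.93 in non-neuronal cells and 2.44 in L4 cells. L2/3 cells below the line thus had about the level of the cells around them. In L2/3 cells labelled in the first round the fold was 2.51. Gm49948, with the highest fold of all (3.62), is annotated over the same stretch and strand as Pcp4, so that UMIs of the 2 genes cannot be told apart with certainty.

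Fam19a1 (Tafa1 in GENCODE), which encodes a secreted chemokine-like peptide of neurons, lies on chromosome 6 at 96090088 to 96635542. Its level above was 4.52, 4.15, 3.27 and 3.54 in regions 1 to 4, and below it was 8.01, 11.0, 6.83 and 5.29. The regions did not overlap, and the pooled fold was 1.95 (interval 1.69 to 2.25). The surrounding cells had a like fold of 2.11 but far lower levels, 1.23 above and 2.60 below. Among other subclasses L5PT cells had 10.9, L4 cells 1.91 and L5IT cells 1.68. First-round cells below the line had a level of 12.7, against 4.87 in first-round cells above (fold 2.60). Both levels exceeded those of all L2/3 cells of the same side, 7.83 below and 4.02 above.

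Among the other 9 of the 12 highest genes, 3110035E14Rik (vexin, Vxn in GENCODE) had a fold of 2.10 and the calcium-binding protein gene Pvalb, a marker of fast-spiking interneurons, of 2.08, beside 1.91 and 1.37 in the surrounding cells. The vexin gene ranged from 2.00 to 2.43 over the regions above and from 3.27 to 6.93 below. Rab3c, a small GTPase of synaptic vesicles, was at 1.54 to 2.32 above and 2.56 to 4.20 below, with the same fold in L2/3 cells and in the surrounding cells, 1.74. Cyr61 (Ccn1), a secreted matrix protein, gave 1.91 and 1.55. For these genes the pooled fold of the surrounding cells had the same direction, but for Pvalb region 3 went the other way there (0.876).

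Other genes were higher in L2/3 cells, while their pooled folds in the surrounding cells were near 1 or under it. The splicing factor gene Srsf7 had a fold of 1.82 in L2/3 cells and 0.711 in the surrounding cells, and the actin regulator Wasf3 1.78 and 0.948. The folds were 1.83 and 1.11 for Cbarp, a regulator of calcium channels, 1.73 and 1.09 for the casein kinase gene Csnk1e, and 1.70 and 1.09 for the sodium channel subunit Scn2b. Over the regions the surrounding cells ran from 0.864 to 1.61 for Cbarp, 0.914 to 1.62 for Csnk1e and 0.953 to 1.32 for Scn2b. All these genes were chosen by high folds in L2/3 cells, so folds nearer 1 elsewhere would follow in part from the choice alone. Their levels below rested on few UMIs, 63 to 102 per gene. Srsf7, at 0.96 above, was at 1.05 between the line and a depth of 0.5 and at 2.18 deeper. Csnk1e, at 0.976 above, was at 2.79 and 1.00 in the same order. Both genes thus differed from the cells above mainly in 1 of the 2 depth ranges. In first-round cells the fold of Wasf3 was 1.28, and those of the other genes lay between 1.73 and 2.52. Scn2b lay between 1.51 and 1.77 over the regions above and between 2.10 and 3.06 below, so it did not overlap, whereas Csnk1e, at 0.822 to 1.29 above and 1.22 to 2.02 below, did.

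Among the genes named, those lower below the line reached larger folds, but the minimum over both sides lets in more genes high above. With a mean level of both sides of at least 1 as the minimum, 8 of the 12 lowest genes were still called. Pde7b was not among those 8. Pde7b, a cyclic AMP phosphodiesterase gene on chromosome 10 at 20273567 to 20600886, had 203 UMIs above and 10 below. Its level above was 1.28, 1.83, 1.05 and 1.54 in regions 1 to 4, and below it was 0.475, 0.131, 0.285 and 0, the last in 66 cells. All regions below lay under all regions above, and the pooled level was 5.28-fold lower below (fold 0.189, interval 0.0894 to 0.355). In the surrounding cells the pooled fold was 0.866, with levels of 0.422 above and 0.365 below, and L4 cells held 0.785. That fold was 0.545, 2.98, 0.570 and 0.740 in regions 1 to 4, so region 2 went the other way. The gene was thus more abundant in L2/3 cells above than around them, and near the level of the surrounding cells below. In first-round cells the fold was 0.243, from 4 UMIs below.

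Rasgrf2, a calcium-dependent Ras exchange factor and L2/3 marker on chromosome 13 at 92027891 to 92269375, was at 3.08, 2.76, 2.00 and 2.57 above in regions 1 to 4 and at 0.747, 0.131, 0.854 and 0.882 below. Calbindin, whose gene Calb1 lies on chromosome 4 at 15881155 to 15908085, was at 2.14, 3.40, 2.91 and 2.54 above and at 0.475, 0.788, 0.997 and 0.882 below. Neither gene's regions overlapped, and the pooled folds were 0.246 (interval 0.157 to 0.368) and 0.278 (interval 0.181 to 0.411). Both were also lower below in the surrounding cells, with folds of 0.441 and 0.362, and in first-round cells the folds were 0.405 and 0.370. In L4 cells Rasgrf2 was at 1.18 and Calb1 at 1.21, above their levels of 0.670 and 0.724 in L2/3 cells below the line.

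Unc5d, a netrin receptor of the family that guides migrating neurons and axons, lies on chromosome 8 at 29136745 to 29709664. Its level above was 3.60, 2.44, 2.00 and 2.06 in regions 1 to 4 and below it was 0.747, 1.18, 0.285 and 1.26. The groups did not overlap, and the pooled fold was 0.312 (interval 0.211 to 0.448), beside 0.704 in the surrounding cells and 0.387 in first-round cells. L4 cells held 3.34, so Unc5d was high in upper L2/3 cells and in L4 cells and low in L2/3 cells below the line. Kctd16, an auxiliary subunit of GABA-B receptors, had the same form, at 4.01 above, 1.58 below and 3.37 in L4 cells. Its fold was 0.394 in L2/3 cells, 0.562 in first-round cells and 1.07 in the surrounding cells, where the regions ran from 0.684 to 1.93.

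**Figure D3:**
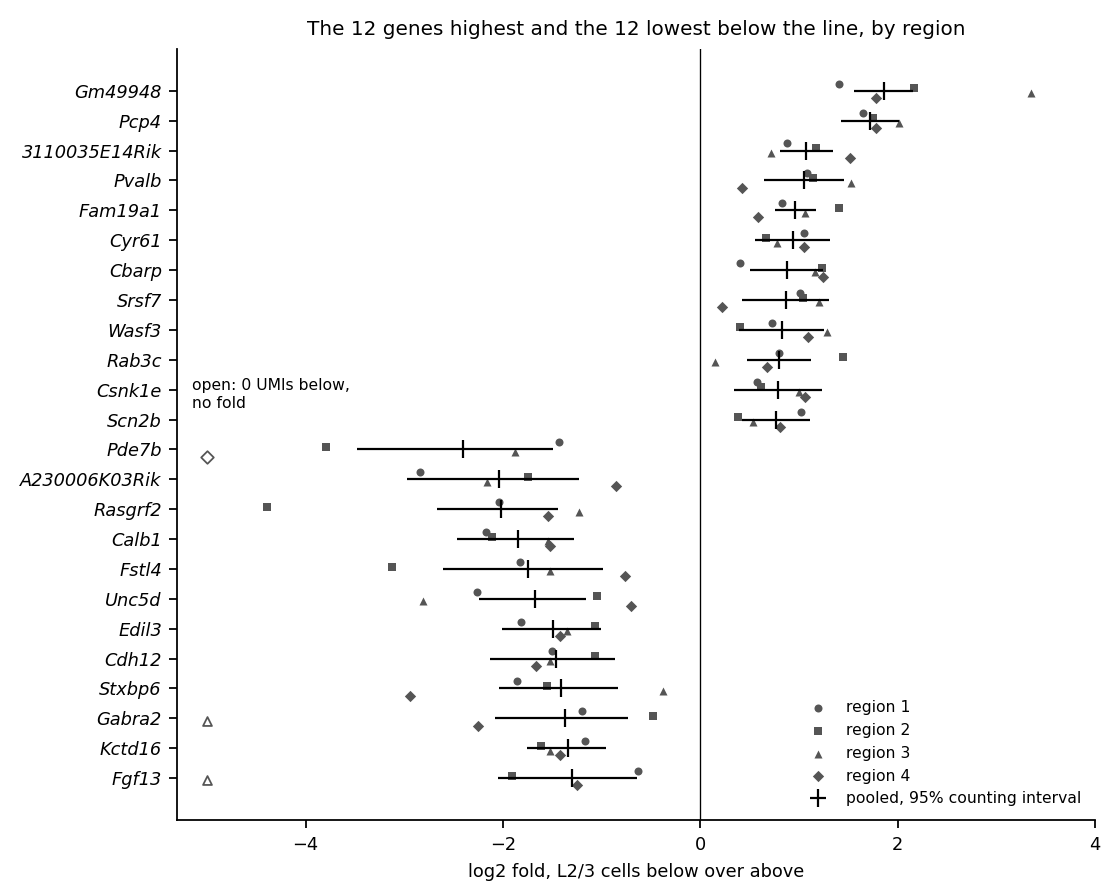
Log2 fold of L2/3 cells below over above for 24 of the genes called, namely the 12 of highest and the 12 of lowest pooled fold; grey symbols are the 4 regions, black bars the pooled value with its 95% counting interval, and open symbols at the left edge regions with 0 UMIs below, which have no fold. Every gene keeps its direction in every region, which the rule required, and the regions spread widely for Pde7b, Rasgrf2 and Gabra2.

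The other genes of this end were Fstl4, a follistatin-like secreted protein (fold 0.299), the integrin ligand Edil3 (0.356), the cadherin Cdh12 (0.362), Stxbp6, which binds the vesicle fusion machinery (0.376), the GABA-A receptor subunit Gabra2 (0.386), Fgf13, which binds sodium channels (0.405), and A230006K03Rik (0.244). Their folds in the surrounding cells were 0.812, 0.895, 0.640, 0.638, 0.560, 0.780 and 0.941 in the same order. All 7 pooled folds were nearer 1 there than in L2/3 cells, and for A230006K03Rik the surrounding cells ran from 0.416 to 1.51 over the regions. The genes were chosen by their extreme folds in L2/3 cells, so folds nearer 1 elsewhere would follow in part from the choice alone. A level of 0 was found below in 1 region each for Pde7b (region 4), Gabra2 (region 3) and Fgf13 (region 3), where 3 UMIs correspond to levels of 0.378 and 0.427. Cdh12 shares its stretch and strand with the gene AC124561.1, which was also called lower (0.485).

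The genes called were also compared as a whole with the surrounding cells. Of the 31 genes higher below, 27 (87.1%) had a fold over 1 in the surrounding cells, where 51.0% of all genes compared did, and 10 of them were called higher there by the same rule, which called 25 genes (1.24%) higher and 31 (1.53%) lower in the surrounding cells. Of the 95 genes lower below, 65 (68.4%) had a fold under 1 in the surrounding cells, against 49.0% of all genes, and 15 were called lower there. The median log2 fold of the genes called was 0.73 in L2/3 cells and 0.27 around them for the higher set, and -0.76 and -0.21 for the lower set. Both sets were chosen by their folds in L2/3 cells, so smaller medians in other cells would follow in part from the choice alone. In L4 cells split at the same line, the medians were 0.30 and -0.13, and 4 of the 31 and 7 of the 95 were called in the same direction and 1 of the 95 in the other. Of all 2023 genes, 16 were called higher and 16 lower in L4 cells.

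**Figure D4:**
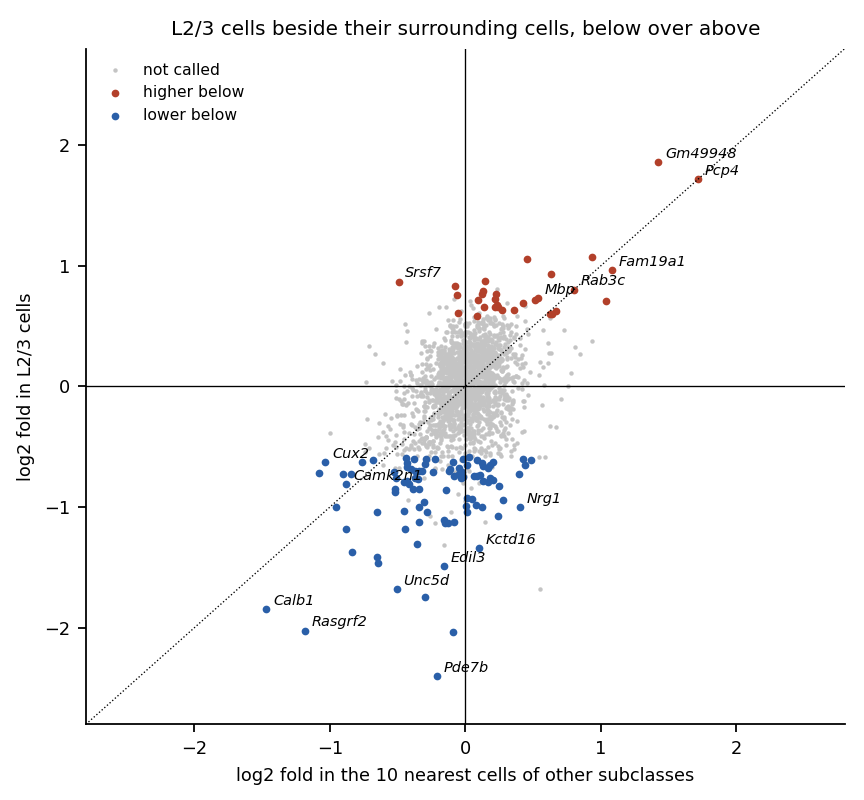
Log2 fold in the 10 nearest cells without an L2/3 label (x axis) and in L2/3 cells (y axis), below over above, for the 2023 genes compared. The dotted line marks equal folds, and cells with no subclass label are among the nearest cells. Pcp4, Fam19a1 and Rab3c lie near the dotted line, whereas Pde7b, Edil3 and Kctd16 lie far under it and Srsf7 above it.

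By depth, the step was at or near the line for several genes. The L2/3 cells were divided at depths of 0.168, 0.337 (the line) and 0.5, into zones of 672, 450, 127 and 157 cells from top to bottom. Calb1 was at 2.93, 2.16, 0.767 and 0.697, and Rasgrf2 at 2.85, 2.56, 0.697 and 0.653. Unc5d was at 2.60, 2.95, 0.697 and 0.958. These 3 genes were low in both zones under the line. Pcp4 was at 1.60, 1.38, 3.90 and 5.62 and Fam19a1 at 4.36, 3.56, 8.30 and 7.54. In each region Calb1 and Fam19a1 were higher in the uppermost zone than in the next, whereas the order of the zones on the same side differed between regions for Pcp4. First-round labels made up 67.6, 51.6, 26.8 and 29.9% of the cells of these zones.

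The Cux genes behaved otherwise and were looked at by zone after their values were seen. Cux2 was at 2.34 and 2.20 in the upper zones, at 2.93 (interval from 2.11) just under the line and at 0.566 (interval from 0.302) below 0.5. In the zone just under the line, 27 of its 42 UMIs came from region 1, in 13 cells, where the level was 4.75, and the other regions gave 2.00, 0.901 and 2.48. Below 0.5 the 4 regions gave 0.332, 0.782, 0.271 and 0.979, each under every region of both upper zones. Cux1 was at 1.24, 1.33, 2.30 and 0.0871 in the 4 zones, the last from 2 UMIs in 157 cells. Just under the line Cux1 was at 2.81, 1.20, 1.20 and 3.54 in regions 1 to 4, higher than in both upper zones in regions 1 and 4 but not in regions 2 and 3. Without region 1 that zone had 1.73 for Cux2 and 1.96 for Cux1. The 4 regions thus gave no shared order between the zone just under the line and those above it, and both genes were far lower deeper than 0.5, while Calb1 and Rasgrf2 were already low just under the line.

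**Figure D5:**
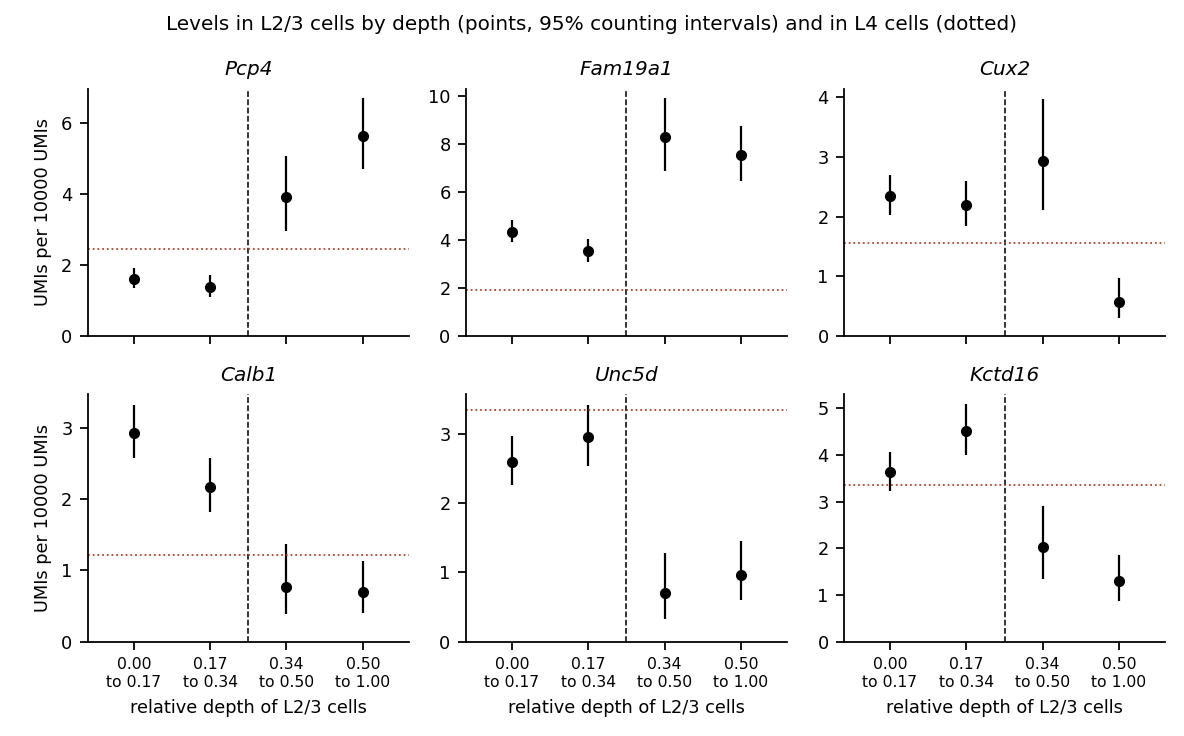
Levels of 6 genes (UMIs per 10000 UMIs) in L2/3 cells of 4 zones of relative depth, with 95% counting intervals, the dashed dividing line at 0.337 and the level in L4 cells as a dotted line. Pcp4 and Fam19a1 are higher in both zones under the line, Calb1, Unc5d and Kctd16 are lower in both, and Cux2 is low only in the deepest zone, at 0.566.

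Of the layer markers, 5 of the 21 L2/3 markers reached 200 UMIs. Of these, 4 were called lower, against 4.70% of all genes compared, namely Rasgrf2, Calb1, the membrane protein gene Lamp5 (0.605) and Cux2 (0.646). Their median log2 fold was -0.72 over the 5, beside 0.02 over all genes compared, and -1.03 in the surrounding cells. Leaving out any of the 4 regions, after which Cux1 no longer reached 200 UMIs, gave a median of -1.35 to -1.25. At a minimum of 100 UMIs, 9 were compared, all 9 had folds under 1, and the median was -0.88. No marker listed for L4 reached 200 UMIs. At 100 UMIs 4 did, with a median log2 fold of -0.22, and the 15 L4 markers summed to 5.75 above and 5.47 below (fold 0.952, interval 0.812 to 1.11), where L4 cells had 12.9. L2/3 cells of both sides therefore lay under the L4 cells in these genes.

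Among deep-layer markers Pcp4 alone was called higher, and the summed lists differed. The 16 markers of L6CT and L6b cells summed to 4.80 above and 10.5 below (fold 2.18, interval 1.92 to 2.47), with region folds from 1.94 to 2.70, beside a fold of 2.17 in the surrounding cells and a level of 29.7 in L6CT cells. In first-round cells the fold of this list was 1.93. Pcp4 alone reached 200 UMIs, and it supplied 216 of the 688 UMIs of the list above and 185 of the 390 below. Of the 4 others with at least 100 UMIs, Tle4, a transcriptional corepressor, had a fold of 2.22, Rprm of 2.05, Garnl3 of 1.27 and Hs3st4 of 1.24. L5PT markers summed to 4.35 above and 6.54 below (interval of the fold 1.29 to 1.75). The surrounding cells had 4.59 and 7.09, and in first-round cells the fold was 1.57 for these markers. Of these, Bcl11b (named Rit1 in the files), the transcription factor that directs subcerebral neurons, had 73 UMIs above and 52 below, under the minimum, and a fold of 2.74, against 1.63 in the surrounding cells. L5IT markers gave 1.53 (interval 1.21 to 1.92), beside 1.68 in the surrounding cells and 1.02 in first-round cells, and the region folds ran from 0.974 to 2.06. Etv1, the most counted of them, had a fold of 1.56. L6IT markers had 18 UMIs below and a fold of 1.44 (interval 0.789 to 2.52), beside 1.95 in the surrounding cells. Of the L5NP markers, Etl4 was compared and called lower (0.582), and the list summed to 0.853 (interval 0.691 to 1.04), beside 1.09 in the surrounding cells.

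Markers of cells other than glutamatergic neurons were present on both sides. Their calls stand beside 1.53% of all genes compared that were called higher and 4.70% called lower. The 14 oligodendrocyte markers, whose genes build myelin, summed to 19.6 above and 30.0 below (fold 1.53, region folds 1.42 to 1.71). The regions ran from 13.8 to 24.3 above and from 23.4 to 34.6 below and so overlapped. The fold was 1.46 in the surrounding cells and 1.57 in first-round cells, and non-neuronal cells had a level of 55.7. Of the 4 compared, 3 were called higher, among them Mbp at 5.66 and 9.38 and Mal at 1.05 and 1.72. Mbp in regions 1 to 4 was at 7.14, 4.12, 3.63 and 5.68 above and at 11.8, 7.22, 7.69 and 8.45 below, higher below in each region and without overlap. The 18 astrocyte markers summed to a fold of 1.16 (interval 1.11 to 1.22), beside 0.964 in the surrounding cells, and 0 of 11 compared were called, with Ndrg2 the farthest (1.46). GABAergic markers summed to 1.08 (interval 0.983 to 1.18) with 1 of 6 called, Pvalb. Members went both ways, as 10 of the 15 listed had a fold over 1 and 5 under 1. Under the minimum of UMIs, Vip had 99 UMIs above and 5 below (fold 0.194, interval 0.0617 to 0.469), beside 0.399 in the surrounding cells. Npy had a fold of 0.56, beside 0.604 there. Microglial markers summed to 3.23 above and 2.44 below (fold 0.756, interval 0.597 to 0.948), vascular markers to a fold of 1.02 and oligodendrocyte precursor markers to 1.28 (interval 0.873 to 1.85). No list of these cell types was at 0 on either side, and their part in the other differences was not tested.

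Genes of cell adhesion and guidance were called in 1 direction. Of 28 compared, 8 were called lower and 0 higher, against 4.70% and 1.53% of all genes compared, and 25 had a fold under 1. The median log2 fold was -0.42, and 0.05 in the surrounding cells. The 73 genes of the list summed to 130 above and 101 below (fold 0.781), but to 144 and 136 in first-round cells (fold 0.944). Of the 506 longest genes compared, 13.2% were called lower. Besides Unc5d and Cdh12, the Nogo receptor relative Rtn4rl1 (0.442), the secreted guidance cue Slit3 (0.475) and Lingo2 (0.578) were called. Slit3 had a fold of 1.18 in the surrounding cells and Rtn4rl1 of 0.542, so members of the list differed in this respect. The highest fold was that of Cntn1, a contactin, at 1.16, and it was not called.

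Receptor and channel genes differed by family, where 4.70% of all genes compared were called lower and 1.53% higher. Of 10 glutamate receptor subunits compared, 2 were called lower, the metabotropic receptor Grm7 (0.506) and the NMDA receptor subunit Grin2a (0.599), and the median log2 fold was -0.41, beside 0.07 around the cells. Grm7 was at 7.48, 4.87, 3.50 and 4.20 above and at 3.67, 2.76, 2.56 and 1.51 below in regions 1 to 4. It was lower below in each region, but the value of region 1 below exceeded that of region 3 above. In first-round cells the fold of Grm7 was 0.912, and the 21 glutamate receptor genes summed to a fold of 0.929 there, against 0.798 in all L2/3 cells. Of 18 potassium channel genes, 5 were called lower, led by Kcnc2 (0.599), Kcnq5 (0.610) and Kcnip4 (0.635), with a median of -0.16. The 44 genes of that list summed to a fold of 0.810 in L2/3 cells, 0.860 in first-round cells and 1.03 in the surrounding cells. Of 8 GABA-A receptor subunits, Gabra2 was called, and the farthest the other way was Gabrg3 (1.58), which region 4 alone carried, with 5.04 below against 0.742 above. Of 11 sodium channel and pump genes, Scn2b was called higher and 0 lower.

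Of 22 postsynaptic genes compared, Shank2 was called lower (0.625), 20 had a fold under 1, and the median log2 fold was -0.26, beside -0.04 in the surrounding cells. This is 1 call of 22, near the 4.70% of all genes compared. The sum of the list had a fold of 0.842 in L2/3 cells and 0.910 in first-round cells. Nlgn1, an adhesion protein of excitatory synapses, had a pooled fold of 0.672 but was higher below in region 4 and not called. Synaptic vesicle genes stood on the other side, with a median of 0.17 over 27 compared, 20 of them with a fold over 1. Rab3c and Sv2a (1.70) were called higher, which is 2 calls of 27, beside 1.53% of all genes compared. Cplx1, which clamps vesicle release, had a fold of 1.62 but was lower below in region 4. The list of calcium and calmodulin genes summed to a fold of 0.905, beside 0.853 in the surrounding cells. Of 28 compared (median log2 fold -0.08), Pcp4 and Pvalb were called higher, where 1.53% of all genes compared were. Calb1, the ryanodine receptor Ryr2 (0.563) and Camk2n1, an inhibitor of calmodulin kinase II (0.569), were called lower, where 4.70% of all were.

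Camk2n1 was the most counted of these, with 2707 UMIs above and 401 below. Its level was 16.2, 19.3, 20.6 and 21.9 in regions 1 to 4 above and 10.8, 10.1, 11.7 and 10.5 below. The 2 groups lay wide apart, the pooled fold was 0.569, and that of the surrounding cells was 0.545. L4 cells had 15.5 and L6CT cells 8.28. Ryr2, by contrast, had a fold of 1.19 around the cells.

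Several lists had 1 gene called or none, where 1.53% of all genes compared were called higher and 4.70% lower. The sums of some of these lists still differed. Of 17 neurofilament and axonal cytoskeleton genes 0 were called (median log2 fold 0.15), and the farthest was the tubulin gene Tubb2a (1.40). The whole list summed to a fold of 1.12 (interval 1.08 to 1.16), beside 1.05 in the surrounding cells. Of 9 mitochondrially encoded genes 0 were called (0.20), although 8 had folds over 1, as in mt-Nd2 at 11.8 above and 15.0 below. All 15 listed summed to a fold of 1.17 (interval 1.13 to 1.20), with 1.14 to 1.19 over the regions and 1.03 in the surrounding cells. Of 14 glycolytic genes 0 were called (0.26), and Pgk1 reached 1.32. The 16 listed summed to a fold of 1.12 (interval 1.07 to 1.18), with 0.963 to 1.18 over the regions and 1.10 in the surrounding cells. Of 15 immediate early genes, which follow neuronal activity, Btg2 was called lower (0.655), Arc had a fold of 1.48 and was not called, and Fos was at 3.99 above and 4.26 below. Of 10 glutamatergic identity genes compared, Grin2a was called and the median was -0.11. Of 8 nuclear noncoding RNAs 0 were called, but the 10 listed summed to a fold of 0.826 (interval 0.7945 to 0.8585). That sum had a fold of 0.755 to 0.944 over the regions and of 1.075 in the surrounding cells. Malat1 was at 33.2 above and 20.9 below, but higher below in region 3, and Snhg14 at 3.09 and 1.42, but higher below in region 2.

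The genes lower below were long. Their median length in GENCODE was 253 kb, against 37.4 kb for all genes compared and 32.2 kb for the genes higher below, and 69 of the 95 (72.6%) were longer than 100 kb, against 28.7% of all. With the genes compared divided into 4 equal groups by length, the median log2 fold was 0.11, 0.09, 0.01 and -0.19 from the shortest to the longest, and the genes called lower numbered 10, 10, 8 and 67. In the group of the longest genes the 4 regions gave -0.30, -0.26, -0.13 and -0.18. The surrounding cells gave -0.01 in the shortest and 0.05 in the longest group, so the lower values of long genes were seen in L2/3 cells and not around them.

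Label rounds differed in the same genes. Among L2/3 cells above the line alone, the level in cells of later rounds over that in first-round cells had a median log2 of 0.17, 0.15, 0.07 and -0.30 over the 4 length groups, and it was under 1 for 76 of the 95 genes called lower (80.0%), against 810 of all 2023. Within first-round cells, below over above, 31 of 31 genes called higher kept a fold over 1 and 93 of 95 called lower kept a fold under 1, with medians of 0.95 and -0.65. These cells are part of the sums by which the genes were called, and 26 of the 31 and 53 of the 95 were past 1.5-fold in them. In the same first-round cells the median of the longest genes was -0.17. With the cells above weighted to the rounds of the cells below, 27 genes were called higher and 69 lower, of which 21 and 52 were among the 31 and 95. Gene length and label round both differed with depth, and their separate parts were not tested.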

How the data were processed

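Per the study's methods, the authors processed the Stereo-seq reads with the SAW workflow against GRCm39, took adjusted cell outlines, removed cells with fewer than 50 genes or 100 UMIs, and deposited raw UMI counts per gene and cell; strand handling is not given in the sources used here. Other deposited values, per the file headers, are cell positions (2 units per µm), regions, quality flags and class, subclass and type labels with their rounds, transferred from single-nucleus RNA by nearest neighbors. The labels were assigned from the same counts, so cells below the line had to resemble L2/3 cells to be members.

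Depth, sums and folds were computed with Python 3.11.15, numpy 2.4.6, scipy 1.17.1 and pandas 2.3.3, and plotted with matplotlib 3.10.9. Levels have exact Poisson, folds exact conditional binomial and shares Clopper-Pearson 95% intervals. Genes named are the 12 highest and 12 lowest of those called, and the members of 27 lists (512 genes) with the largest folds; others are marked as chosen later. Members and lists were chosen with earlier results of these data known. Gene positions are from GENCODE M39, which holds 61249 of the 61317 features. For 7 list genes with several features the most counted was used. No cell barcode was shared by the 2 sections. Alternatives, 17 for the genes, changed the UMI minimum, thinned cells to 500 UMIs (leaving out 68 cells above and 21 below), moved the line, restricted the cells or labels, or left out a region. Opossum counts were not used here. The calling script was tested on simulated data. The values of 1 gene called higher are not reported here.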

Additional observations from a re-analysis of the deposited data

How the results depend on the processing

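The share of L2/3 cells below the line was 10.6% with labels of the first round only and 13.6% with cells that had an L2/3 type label, against 20.2%, and 19.7 to 20.8% with each region left out. The counts of 31 genes higher and 95 lower became 102 and 226 at a minimum of 100 UMIs, 12 and 39 at 400 UMIs, and 57 and 124 with cells thinned to 500 UMIs, where 14 and 51 were among those called. First-round labels alone gave 29 and 52, of which 5 and 15 were among them, from 951 genes compared. A mean level of both sides of at least 1 gave 54 higher. Leaving out each region gave 29 to 39 higher and 51 to 96 lower, the lowest without region 1. The median log2 fold of the L2/3 markers rests on 5 genes. It was -0.72 and became -1.85 at 400 UMIs, -1.53 after thinning, -1.47 without cells within 0.05 of the line, -1.28 with cells deeper than 0.5 left out and -1.35 to -1.25 with each region left out. That of the L6CT and L6b markers, 1.72 from Pcp4 alone, was 1.04 at 100 UMIs, 1.37 with cells deeper than 0.5 left out and 1.70 to 1.78 with each region left out; first-round labels left no gene to compare. The L4 markers had no value except at 100 UMIs (-0.22). The alternatives with a mean level of at least 1, with weighted rounds, with cells above 0.5 only and with a type label were chosen after seeing the data. The causes were not tested. In 408 values of the 24 named genes under the alternatives none changed direction, and 26 moved by more than the spread between regions. The alternatives that changed only a minimum could not alter a gene's fold. The rule required 1 direction in all 4 regions, so leaving out or averaging regions could hardly reverse it. The count of unchanged directions is therefore no independent check of these genes. All values come from 1 section of 1 animal, and levels below rest on 373026 UMIs, so differences in genes with few UMIs were not detectable. The labels hold 1 mouse sample, so nothing could be paired over animals. Both sides lie in each region, and the mean of the log2 folds of the 4 regions gave 41 genes higher and 89 lower.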

Other observations

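Some genes called outside the 24 named by rank are given here, chosen after their values were seen. Higher below were Pex5l, a subunit that regulates pacemaker channels (fold 1.64, against 2.06 in the surrounding cells), Oxr1, an oxidation resistance gene (1.54 and 1.59), the kinesin gene Kif1a, which carries vesicle precursors along axons (1.58 and 1.10), and Got1, an aspartate aminotransferase (1.65 and 1.17). Among genes called lower, Nrg1, a growth factor of the neuregulin family, was 2.00-fold lower below in L2/3 cells (interval 1.60 to 2.53) and had a fold of 1.32 in the surrounding cells. The folds were 0.585 and 1.16 for the splicing factor gene Rbfox1 and 0.645 and 1.09 for Nrxn3, a synaptic adhesion gene of the adhesion and guidance list. For these 3 genes the pooled fold of the surrounding cells lay on the other side of 1. Scg3, a granin of secretory granules, had a pooled fold of 1.75 and was not called, since its direction was not the same in all 4 regions.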
